A study of Homo sapiens with 4 samples.

Results

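The solute carrier (SLC) genes are the subject: those of class mRNA whose symbol is SLC followed by a number and A, and whose mean over the 4 libraries was at least 1 FPKM. This left 164 of the 343 SLC genes of that class. The other 179 were under the minimum, and 81 of them were listed at 0 in all 4 libraries. Because members were selected on their measured level, the levels are given as a description. They are a small part of the 10383 mRNAs that passed the same minimum, which serve as the background throughout.

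Solute carriers are membrane proteins that move small molecules, such as sugars, amino acids, nucleosides, vitamins, ions and metals, across lipid bilayers. Carriers of the plasma membrane are made at the endoplasmic reticulum and exchange solutes with the medium. The SLC25A family sits mostly in the inner mitochondrial membrane, is made on cytosolic ribosomes from nuclear genes, and exchanges nucleotides, phosphate, carboxylates and cofactors with the matrix.

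The cells were MDA-MB-231, a human breast cancer line. Their own METTL3, the catalytic subunit of the m6A methyltransferase, was depleted with a lentiviral shRNA in both groups and replaced through a lentivirus with either METTL3-WT or METTL3-K177Q, in which a lysine is changed to glutamine to mimic acetylation. After cycloheximide, cytoplasmic lysates were parted on a sucrose gradient, and the fractions were pooled into a sub-polysome pool (40S, 60S and 80S) and a polysome pool. The question was how the acetylation mimic alters the loading of mRNAs on polysomes. One library of each genotype and pool was analysed, all from replicate 2, so nothing between genotypes could be tested against a spread between replicates. Depth, estimated from the lowest values of each library, was about 24500000 to 26500000 fragments. Of the labelled line's markers, VIM (677 to 1543 FPKM), CD44 and AXL were high and ESR1, PGR and CDH1 were near 0, while SPARC stayed at or under 0.239 FPKM, low for a gene listed as a marker of this line. The epithelial genes ERBB2 (12.2 to 28.3 FPKM) and EPCAM (6.20 to 9.91 FPKM), listed as low in it, were not near 0. METTL3 itself was at 9.39 and 5.07 FPKM in the sub-polysome libraries of METTL3-WT and METTL3-K177Q cells and at 38.7 and 29.5 FPKM in the polysome libraries. This gives no check of the substitution, since the table holds levels and not sequence.

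By the known site of the protein, 60 members were listed as plasma membrane carriers, 36 as the SLC25A family and 38 as intracellular carriers of lysosomes, the Golgi, the endoplasmic reticulum or other compartments. Another 26 were left unassigned, and 4 carry an SLC symbol without being transporters (SLC9A3R1, SLC9A3R2, SLC4A1AP and SLC2A4RG). SLC7A6OS, among the unassigned, is no transporter either. Before the minimum the lists held 160, 48 and 53 genes, so a larger share of the SLC25A family was measured. At the edge of the minimum, SLC16A7, SLC22A31 and SLC22A15 lay just outside with means of 0.813, 0.846 and 0.936 FPKM, and SLC4A3, SLC22A3 and SLC7A11 just inside with 1.01, 1.01 and 1.02 FPKM.

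The start of the mRNA is shown for the 4 most abundant SLC25A genes and for 4 abundant plasma membrane carriers, because a run of pyrimidines right at the start marks the 5′ terminal oligopyrimidine (TOP) mRNAs, whose translation is regulated as a group. The sequences are RefSeq promoter windows on GRCh38.p14, 30 bases before and 20 from the annotated start, on the strand of the gene. Capitals mark the unbroken run of C and T that begins with a C at the start site.

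SLC25A5 (chrX:119468414-119468463, plus strand): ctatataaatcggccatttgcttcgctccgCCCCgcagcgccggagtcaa
SLC25A6 (chrX:1392094-1392143, minus strand): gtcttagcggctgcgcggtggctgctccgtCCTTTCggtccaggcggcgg
SLC25A3 (chr12:98593656-98593705, plus strand): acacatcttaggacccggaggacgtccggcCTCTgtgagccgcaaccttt
SLC25A39 (chr17:44324804-44324853, minus strand): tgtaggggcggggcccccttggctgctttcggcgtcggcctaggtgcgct
SLC16A3 (chr17:82229012-82229061, plus strand): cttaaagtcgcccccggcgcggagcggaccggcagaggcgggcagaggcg
SLC2A1 (chr1:42958849-42958898, minus strand): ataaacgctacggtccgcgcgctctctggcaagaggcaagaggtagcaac
SLC29A1 (chr6:44223565-44223614, plus strand): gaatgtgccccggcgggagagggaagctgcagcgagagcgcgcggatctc
SLC1A5 (chr19:46788575-46788624, minus strand): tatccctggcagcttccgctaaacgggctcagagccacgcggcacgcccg

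SLC25A6 alone of these 8 holds a run of at least 5 pyrimidines, CCTTTC, at its annotated start, and the runs of SLC25A5 and SLC25A3 have 4 letters. None of the 4 plasma membrane carriers shown starts with a C. Such a run (C at the start, then at least 4 letters that are C or T, gene strand only) was present in 4.07% of all 35116 promoter windows and in 5.72% of the 8521 background mRNAs with a window. It was found in 2 of the 30 SLC25A genes with a window, SLC25A6 and SLC25A22, or 6.67%, and in 1 of 44 plasma membrane carriers, the amino acid exchanger SLC7A7, or 2.27%. A match describes an annotated start and is not evidence of regulation.

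The start codons of genes at the ends of the range of translation efficiency are given from GENCODE 44 canonical transcripts. The bases around the AUG are the best known feature of initiation. SLC39A4 and SLC25A37, also at the low ends of their lists, are not shown. Each line runs from 9 bases before the start codon to 3 bases after it, with the start codon in capitals.

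SLC3A2: gcaggcaccATGagc
SLC16A3: ctcctggccATGgga
SLC2A1: agcgctgccATGgag
SLC38A2: gtgcttagcATGaag
SLC19A2: gcgccccggATGgat
SLC25A3: agggaaaagATGttc
SLC25A4: gctgtcaccATGggt
SLC25A5: tctttcaacATGaca
SLC25A23: gcgggcgccATGcgg
SLC25A43: cggggctcgATGgct

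The 3 SLC25A genes with the highest efficiency all carry an A at the third base before the start codon, and SLC25A43, near the bottom, carries a T. SLC25A23, lower still, carries a G there, and SLC38A2, at the low end of the plasma membrane list, carries an A. These letters therefore did not order the genes shown, and no comparison over all members was made.

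The 4 values of a gene are given below in one order: METTL3-WT sub-polysome, METTL3-WT polysome, METTL3-K177Q sub-polysome and METTL3-K177Q polysome. FPKM are per kilobase of transcript, so levels can be set side by side between genes. Plasma membrane carriers were led by the lactate exporter. SLC16A3 (MCT4), which carries lactate out of glycolytic cells, was at 502, 1380, 669.9 and 1539 FPKM and made up 35.1% of the summed mean FPKM of its list. Far below it stood SLC39A4 (ZIP4), a zinc importer, at 211, 135, 259 and 116 FPKM. The glucose transporter SLC2A1 (GLUT1) was at 92.8, 207, 126 and 289 FPKM. In these 3 genes the order of the pools differed: SLC16A3 and SLC2A1 were higher in polysomes in both genotypes, and SLC39A4 was higher in the sub-polysome pool in both.

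Carriers of vitamins, nucleosides and amino acids filled the next places. SLC52A2, a riboflavin transporter, was at 126, 208, 164 and 207 FPKM. The nucleoside transporter SLC29A1 (ENT1) was at 117, 199.9, 186 and 202 FPKM. The glutamine transporter SLC1A5 (ASCT2) was at 120.2, 203, 137 and 179 FPKM. All 3 had more FPKM in polysomes than in the sub-polysome pool in either genotype, by less in METTL3-K177Q cells.

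The SLC25A family was carried by a few genes even more than the plasma membrane list was. Its 3 most abundant members made up 70.0% of the summed mean FPKM of the family, against 47.5% for the top 3 plasma membrane carriers. SLC25A5 (ANT2), an ADP/ATP exchanger, was at 328, 868, 384 and 766 FPKM. Its close relative SLC25A6 (ANT3) was at 625, 453, 717 and 371 FPKM. The phosphate carrier SLC25A3 was at 259, 848, 281 and 660.0 FPKM. These 3 supply ADP and phosphate to the ATP synthase, yet SLC25A5 and SLC25A3 were higher in polysomes and SLC25A6 higher in the sub-polysome pool in both genotypes. Reads of the ADP/ATP exchangers can be shared with one another and with the 9 annotated pseudogenes of SLC25A5 and 6 of SLC25A6, so the split between them is uncertain.

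Next came SLC25A39, which serves the entry of glutathione into mitochondria, at 210.4, 122, 268 and 111 FPKM. The citrate carrier SLC25A1 was at 83.4, 103, 99.9 and 105 FPKM. The oxoglutarate/malate carrier SLC25A11 was at 57.8, 90.2, 61.8 and 82.1 FPKM. SLC25A39 stood on the sub-polysome side and SLC25A1 and SLC25A11 on the polysome side, in both genotypes.

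**Figure D1:**
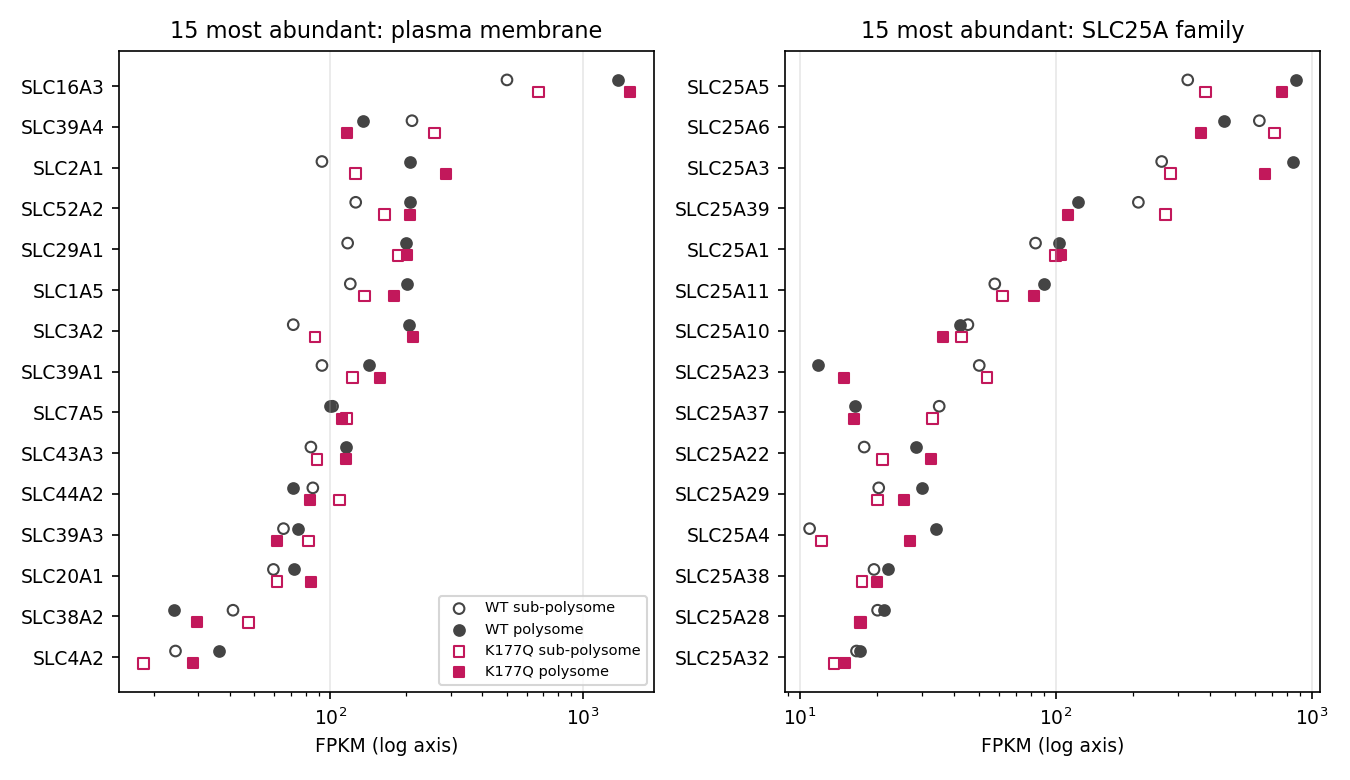
FPKM (log axis) of the 15 most abundant plasma membrane carriers (left) and SLC25A genes (right) in the 4 libraries; circles are METTL3-WT and squares METTL3-K177Q, open symbols the sub-polysome and filled symbols the polysome library. SLC16A3 tops the left panel at 502 to 1539 FPKM, and filled symbols lie well to the left of open ones for SLC39A4, SLC38A2, SLC25A6, SLC25A39, SLC25A23 and SLC25A37.

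Summed over a list, members took a larger share of all mRNA FPKM in polysomes than in the sub-polysome pool, which in the SLC25A family rested on 2 genes. Plasma membrane carriers made up 0.228% of mRNA FPKM in the sub-polysome and 0.419% in the polysome library of METTL3-WT cells. In METTL3-K177Q cells these shares were 0.246% and 0.482%. The SLC25A family made up 0.218% and 0.348% in METTL3-WT cells and 0.213% and 0.317% in METTL3-K177Q cells. The plasma membrane share was thus higher in both METTL3-K177Q libraries and the SLC25A share lower in both. In an alternative chosen after seeing the data, the SLC25A family without SLC25A3 and SLC25A5 made up 0.152% and 0.138% in METTL3-WT cells and 0.148% and 0.130% in METTL3-K177Q cells, so the remaining members summed to less in polysomes. The plasma membrane list without SLC16A3 made up 0.172% and 0.250% in METTL3-WT and 0.181% and 0.281% in METTL3-K177Q cells, higher in polysomes as before.

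Translation efficiency, the polysome over the sub-polysome FPKM of a gene with 0.1 added to each, was first compared within METTL3-WT cells. Its median on the log2 scale was 0.16 (95% interval -0.03 to 0.30) over the 60 plasma membrane carriers, 0.06 (-0.42 to 0.35) over the 36 SLC25A genes and 0.18 over all mRNAs. These are distribution-free intervals of the median, and they rest on the spread between genes of a list, not between replicates. The SLC25A family was the wider list, with an SD between genes of 0.92 against 0.55 for the plasma membrane list. Of the 164 members, 41 were at least 1.5-fold higher in polysomes and 19 at least 1.5-fold lower, or 25.0% and 11.6%, beside 29.4% and 16.0% of all mRNAs. In METTL3-K177Q cells the counts were 35 and 26, or 21.3% and 15.9%, beside 31.5% and 18.1%. All 4 shares of members were below the background.

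The ends of the plasma membrane range were held by well-known carriers. SLC3A2 (4F2hc), the heavy chain that brings amino acid exchangers to the cell surface, was at 71.4, 205, 87.2 and 212 FPKM, a log2 efficiency of 1.52 in METTL3-WT and 1.28 in METTL3-K177Q cells. Its light chain partner SLC7A5 (LAT1), a leucine transporter, was at 102, 99.9, 116 and 112 FPKM, with log2 efficiencies of -0.03 and -0.06. In FPKM the heavy chain was therefore higher in polysomes and the light chain nearly equal in both pools, in either genotype. Equal FPKM do not mean an even split, since each library is scaled on its own. The mRNA medians of log2 efficiency were 0.18 in METTL3-WT and 0.21 in METTL3-K177Q cells, above the light chain in both. SLC16A3 and SLC2A1 had log2 efficiencies of 1.46 and 1.16 in METTL3-WT cells. At the other end among carriers of at least 5 FPKM, the glutamine transporter SLC38A2 (SNAT2), which amino acid shortage induces, was at 41.2, 24.1, 47.5 and 29.6 FPKM, a log2 efficiency of -0.77 in METTL3-WT cells. SLC39A4 and the thiamine transporter SLC19A2 followed at -0.64 and -0.55.

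Within the SLC25A family the span was wider. SLC25A3, SLC25A4 and SLC25A5 had the highest log2 efficiencies in METTL3-WT cells, 1.71, 1.64 and 1.40. SLC25A4 (ANT1), the ADP/ATP exchanger of heart and muscle, was at 10.9, 34.1, 12.1 and 27.0 FPKM. SLC25A6, of the same activity, had a log2 efficiency of -0.46, so the 3 ADP/ATP exchangers did not share a side. SLC25A23, a carrier of ATP-Mg and phosphate regulated by calcium, was at 50.2, 11.7, 53.8 and 14.9 FPKM, a log2 efficiency of -2.09. SLC25A43, whose substrate is not settled, and mitoferrin-1 SLC25A37, which brings iron into mitochondria, had -1.38 and -1.09. The lowest of all members was SLC25A51, the mitochondrial NAD carrier, at -2.30; its mean of 4.73 FPKM lay under the minimum of 5 FPKM for naming, so it was chosen after its values were seen, and it has 4 annotated pseudogenes. Not every ATP-Mg carrier was low: SLC25A24 and SLC25A25 were at 0.35 and 0.91. The iron carrier mitoferrin-2, SLC25A28, was at 0.08.

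**Figure D2:**
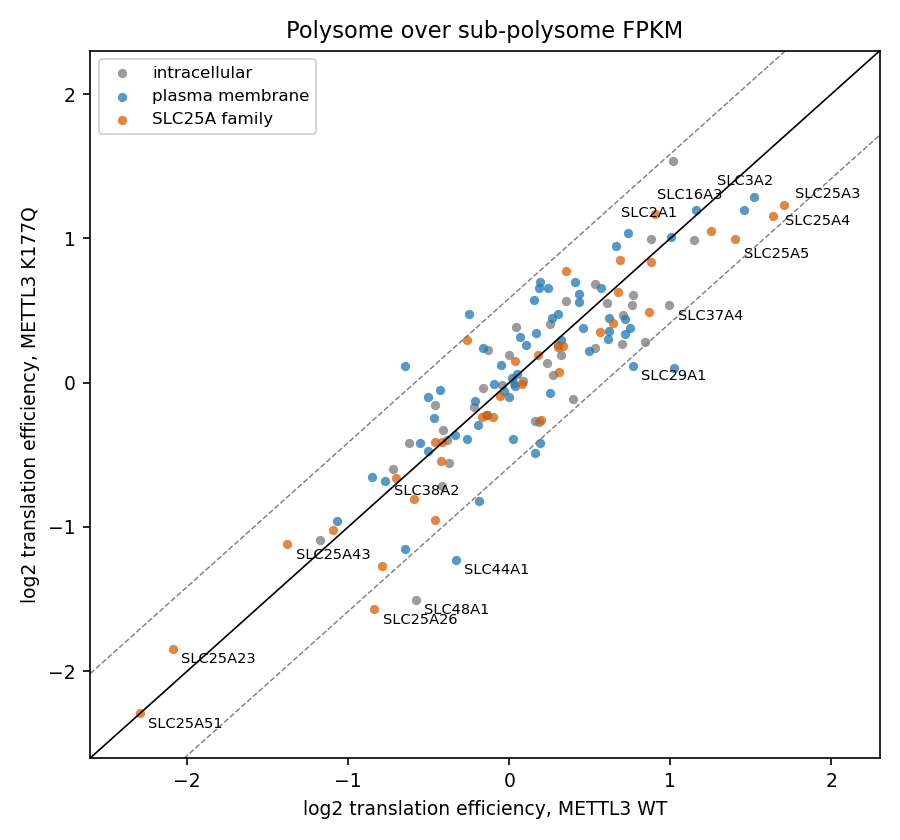
Log2 translation efficiency (polysome over sub-polysome FPKM) in METTL3-WT (x) and METTL3-K177Q cells (y) of plasma membrane (blue), SLC25A (orange) and intracellular (grey) carriers, 1 point a gene; the solid line marks equal values and the dashed lines a 1.5-fold difference. SLC25A51 and SLC25A23 lie at the lower left, and SLC44A1, SLC48A1 and SLC25A26 fall below the lower dashed line.

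The order of genes was much the same in the 2 genotypes. Across the 164 members Pearson's r between the log2 efficiencies in METTL3-WT and METTL3-K177Q cells was 0.88, and across all mRNAs 0.89. Genes are not independent replicates, and each axis rests on 1 pair of libraries.

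Open reading frames upstream of the start codon are a known brake on initiation, so the number of ATG triplets in the annotated 5′UTR was set beside efficiency. Over all mRNAs the median log2 efficiency in METTL3-WT cells was 0.32 with no upstream ATG, 0.03 with 1 or 2 and -0.15 with 3 or more. The 86 members with no upstream ATG had a median of 0.30, the 57 with 1 or 2 of -0.14 and the 21 with 3 or more of -0.09. In the SLC25A family the step was larger, from 0.35 in 23 genes with none to -0.43 in 11 genes with 1 or 2. Only 2 SLC25A genes had 3 or more, with a median of -1.05. In the plasma membrane list the medians with none and with 1 or 2 were 0.22 in 28 genes and 0.02 in 23 genes. The 9 plasma membrane carriers with 3 or more also had 0.02, so no further drop was seen there. SLC25A23 and SLC25A43, near the bottom, have no upstream ATG, and SLC3A2, near the top, has 1. Across genes, Spearman's rho between the number of upstream ATGs and efficiency was -0.50 over the 36 SLC25A genes, -0.26 over the 60 plasma membrane carriers, -0.28 over all members and -0.22 over all mRNAs, as a description with no test.

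The main question was the change of efficiency from METTL3-WT to METTL3-K177Q cells. Its median on the log2 scale was 0.02 (-0.09 to 0.13) over the plasma membrane list, -0.08 (-0.21 to 0.01) over the SLC25A family and -0.002 over all mRNAs, a difference between the lists of 0.10. Both intervals include 0, and the sign for the SLC25A family turned to 0.22 when values were rescaled to TPM, which moved the median of all mRNAs to 0.29. Relative to the mRNA median the SLC25A family was lower under both scalings. This order was all but bound to hold, since TPM multiplies all genes of a library by the same factor. Of the 36 SLC25A genes 23 lay below the mRNA median, and of the 60 plasma membrane carriers 27 did.

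At the 1.5-fold threshold 4 members (2.44%) had higher and 12 (7.32%) lower efficiency in METTL3-K177Q cells, beside 3.73% and 5.59% of all mRNAs. The plasma membrane list gave 2 and 6 of these, the SLC25A family 0 and 1, the intracellular list 0 and 1, and the unassigned genes 2 and 4. The balance turned under TPM, where 20 members (12.2%) were higher and 4 (2.44%) lower, beside 18.2% and 1.61% of all mRNAs. Only SLC29A1, SLC44A1, SLC48A1 and SLC2A11 lay beyond the threshold by more than 1.96 times their approximate counting SE, and the counting SE leaves out all variation between cultures. It leaves out scaling too: under TPM SLC44A1 (-0.60) and SLC48A1 (-0.63) stayed past the threshold and SLC29A1 (-0.35) did not. Rescaling to TPM moved the median over all mRNAs by 0.29, so a single gene between about -0.29 and 0 can take the other sign there.

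The unassigned genes past the threshold were chosen after their values were seen. SLC2A11, of the glucose transporter family, was at 1.56, 1.05, 0.628 and 1.17 FPKM, a log2 change in efficiency of 1.33 (counting SE 0.33), and SLC10A7 had 0.59. The lower ones were SLC27A5 and SLC27A3, of the fatty acid transport family, with -0.97 and -0.68, SLC38A6 with -0.82 and SLC16A5 with -0.62. Apart from SLC27A5, with a mean of 5.92 FPKM, these genes had means under 5 FPKM.

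In SLC44A1, SLC29A1, SLC39A3 and SLC39A4, the plasma membrane carriers at or above 5 FPKM with the lowest change, the sub-polysome level was higher in METTL3-K177Q cells and the polysome level about even or lower. The choline transporter SLC44A1 was at 5.49, 4.33, 8.60 and 3.61 FPKM, a log2 change in efficiency of -0.89 (counting SE 0.08), or 1.86-fold lower. SLC29A1, whose 4 values are given above, had a change of -0.65 (counting SE 0.03). On the deposited scale all of it lay on the sub-polysome side: 0.66 there and 0.01 in polysomes. TPM moved the mRNA medians of these pools by -0.20 and 0.09, so this split depends on the scaling. The zinc importer SLC39A3 (ZIP3) was at 65.3, 74.6, 82.1 and 61.5 FPKM, a change of -0.61, or -0.31 under TPM. A second zinc importer, SLC39A4, had -0.51, short of the threshold. Another 3 genes past it were chosen after their values were seen, and all had means under 5 FPKM: the organic cation transporters SLC22A4 (-0.93) and SLC22A3 (-0.65) and the glutamate transporter SLC1A7 (-0.63).

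The largest increases in the plasma membrane list were smaller among genes at or above 5 FPKM. SLC4A11, a member of the bicarbonate transporter family, was at 5.41, 6.18, 4.78 and 7.80 FPKM, a log2 change in efficiency of 0.51. SLC39A14 (ZIP14), a carrier of zinc, iron and manganese, was at 10.5, 11.9, 8.92 and 14.1 FPKM, a change of 0.47. In both the sub-polysome level was lower and the polysome level higher in METTL3-K177Q cells, the mirror image of SLC44A1. SLC38A1 (SNAT1), a glutamine transporter like SLC38A2, had a change of 0.38. The 2 members of the list past 1.5-fold were the inositol transporter SLC5A3, at 0.72, and the anion exchanger SLC4A3, at 0.76. They had means under 5 FPKM and were chosen after their values were seen. On the deposited scale they changed in the sub-polysome pool (-0.64 and -0.82) with 0.08 and -0.06 in polysomes.

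Other carriers named for their known metabolic roles are given next. The glucose transporters SLC2A1 and SLC2A3 were higher in METTL3-K177Q cells in both pools, with log2 changes of efficiency of 0.03 and 0.13. The log2 change of level was 0.44 in the sub-polysome and 0.48 in the polysome pool for SLC2A1, and 0.40 and 0.52 for SLC2A3. SLC2A3 (GLUT3) was at 7.60, 10.3, 10.0 and 14.9 FPKM and has 3 annotated pseudogenes. SLC16A3 had log2 changes of 0.42 and 0.16 in the same pools and of -0.26 in efficiency. For amino acid carriers the change of efficiency was -0.37 in SLC1A5, -0.24 in SLC3A2, -0.02 in SLC7A5 and 0.09 in SLC38A2. The cystine/glutamate exchanger SLC7A11 (xCT), which feeds glutathione synthesis, was near the minimum at 1.29, 1.14, 0.757 and 0.910 FPKM, and its change of 0.40 has a counting SE of 0.19. The change was 0.18 in the phosphate importer SLC20A1 (PiT1), 0.17 in the zinc exporter SLC30A1 (ZnT1) and -0.03 in the sodium-potassium-chloride cotransporter SLC12A2 (NKCC1).

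In the SLC25A family all 6 genes at 50 FPKM and over had a log2 change of efficiency below 0, although SLC25A1 and SLC25A11 both turned to 0.07 under TPM. SLC25A6, SLC25A4, SLC25A39, SLC25A3 and SLC25A5 had log2 changes of -0.49, -0.48, -0.48, -0.48 and -0.41, each with a counting SE of at most 0.07. None reached 1.5-fold. In each of the 5 the sub-polysome FPKM was higher and the polysome FPKM lower in METTL3-K177Q cells, for example 0.11 and -0.36 in SLC25A3. Under TPM the 5 changes of efficiency shrank to -0.19, -0.19, -0.18, -0.18 and -0.11 in the same order. TPM also moved the sub-polysome mRNA median by -0.20, so a smaller rise there, as in SLC25A3, falls below 0. SLC25A26, which imports the methyl donor S-adenosylmethionine into mitochondria, was at 13.7, 7.65, 16.5 and 5.50 FPKM. Its change of -0.73 (counting SE 0.13) made it the one SLC25A gene past the threshold, though under TPM it had -0.44, short of it.

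Other SLC25A genes went the opposite way or stood still. The calcium-regulated ATP-Mg carriers had higher values: SLC25A24 was at 11.9, 15.2, 8.89 and 15.3 FPKM, a log2 change in efficiency of 0.42, and SLC25A25 and SLC25A23 had 0.26 and 0.25. SLC25A43 had 0.26. On the deposited scale SLC25A24 changed in the sub-polysome pool (-0.41) and SLC25A23 and SLC25A43 in polysomes (0.35 and 0.25). The citrate and oxoglutarate carriers SLC25A1 and SLC25A11 had -0.23 and -0.23. The carnitine/acylcarnitine carrier SLC25A20, needed to burn fatty acids, had -0.20, and the aspartate/glutamate carrier SLC25A13 had 0.16. The 2 mitoferrins SLC25A37 and SLC25A28 had 0.07 and -0.08.

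The change of efficiency went with the level of the gene. Over all mRNAs its median was 0.12 from 1 to 5 FPKM, 0.03 from 5 to 50 FPKM and -0.21 at 50 FPKM and over. In the plasma membrane list the same medians were 0.13 (24 genes), 0.09 (23 genes) and -0.26 (13 genes). In the SLC25A family they were 0.01 (9 genes), -0.05 (21 genes) and -0.44 (6 genes). All 6 abundant SLC25A genes, and 11 of the 13 abundant plasma membrane carriers, had a value below 0, beside 79.3% of the 1979 mRNAs at that level. Of those mRNAs 8.14% were at least 1.5-fold lower. The part of level in the change of single carriers was not tested.

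The change was next taken in each pool on its own, since a ratio hides which side moved. No library of unfractionated RNA was analysed here, so a change in the amount of an mRNA in the cell and a shift between pools cannot be told apart within 1 pool. Past 1.5-fold, METTL3-K177Q cells held more of 11 members in the sub-polysome pool and less of 5, or 6.71% and 3.05%, beside 3.48% and 2.70% of all mRNAs. In the polysome pool 5 were higher and 3 lower, or 3.05% and 1.83%, beside 1.81% and 2.02%. The SLC25A family gave none of these 24 calls.

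Below that threshold the medians of the 2 lists differed in both pools, as a description with no test. The intervals are over genes from 1 library per condition, so whether they overlap is not read as a test. In the sub-polysome pool the median log2 change was 0.18 (0.05 to 0.29) over plasma membrane carriers and -0.04 (-0.13 to 0.10) over SLC25A genes, beside -0.01 over all mRNAs. In the polysome pool it was 0.10 (0.03 to 0.20) and -0.15 (-0.23 to -0.05), beside -0.02 over all mRNAs. The difference between the lists was 0.22 and 0.25 on the log2 scale. Rescaling to TPM moved the mRNA median by -0.20 in the sub-polysome pool and took the plasma membrane median there to -0.02, below 0. The difference in the polysome pool ranged from 0.21 to 0.27 over the alternatives tried, and that in the sub-polysome pool from 0.08 to 0.22. A scaling multiplies all genes of a library by the same factor, so it could hardly move these differences or the order relative to the mRNA median. Only the changes of pseudocount, minimum level and list could. At 50 FPKM and over both sub-polysome medians were above 0, at 0.33 over 13 plasma membrane carriers and 0.21 over 6 SLC25A genes, beside 0.12 over all mRNAs.

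Counted against the mRNA median, 46 of 60 plasma membrane carriers (76.7%) were higher in the polysomes of METTL3-K177Q cells, and 10 of 36 SLC25A genes (27.8%). In the sub-polysome pool 42 of 60 and 14 of 36 were. Both pools were above the mRNA median in 34 plasma membrane carriers (56.7%) and in 4 SLC25A genes (11.1%), against 27.7% of all mRNAs. Both were below it in 6 plasma membrane carriers (10.0%) and in 16 SLC25A genes (44.4%), again against 27.7%. The 4 SLC25A genes above in both were SLC25A1, SLC25A20, SLC25A22 and SLC25A23. The first 3 carry citrate, acylcarnitine and glutamate.

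**Figure D3:**
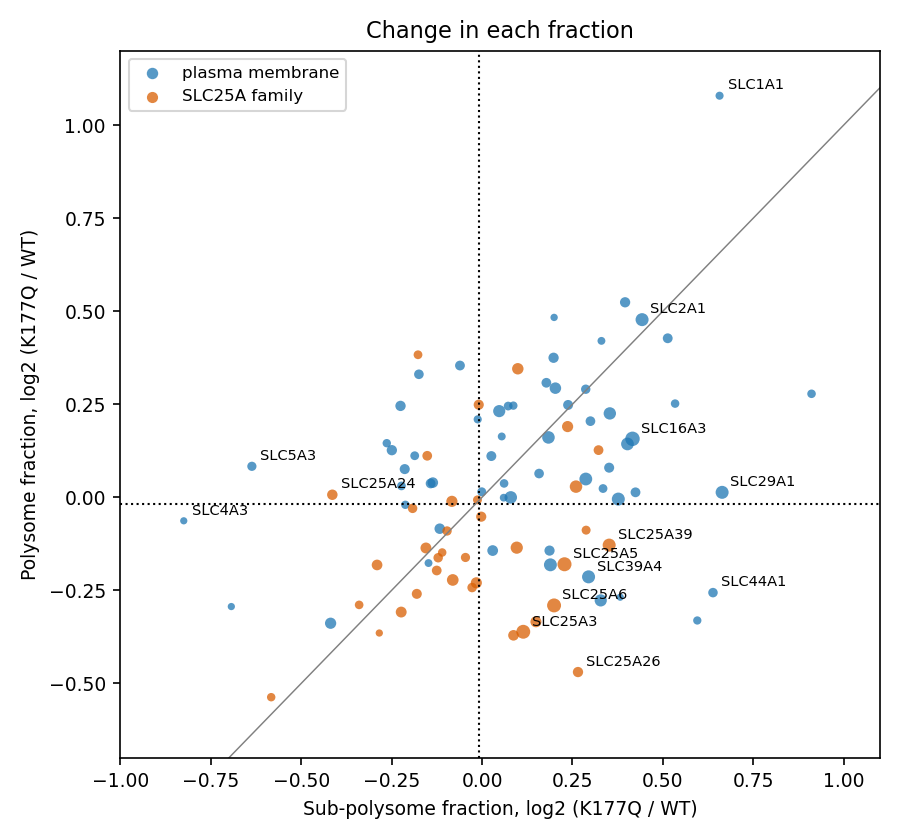
Log2 change from METTL3-WT to METTL3-K177Q in the sub-polysome (x) and polysome pool (y) of plasma membrane (blue) and SLC25A genes (orange), 1 point a gene with its size rising with mean FPKM; dotted lines are the medians of all mRNAs (-0.01 and -0.02), the diagonal is an unchanged efficiency. Blue points crowd the upper right, with 34 of 60 above both medians, and orange points lie mostly below the horizontal line, 26 of 36.

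For the intracellular carriers the medians of the single pools lay nearer to those of the plasma membrane list, and the median change of efficiency nearer to that of the SLC25A family. None of these differences was tested. Their median log2 change was 0.21 (0.01 to 0.40) in the sub-polysome and 0.14 (0.01 to 0.22) in the polysome pool, with 27 of 38 above the mRNA median in each. Their median change of efficiency was -0.04 (-0.18 to 0.08). SLC37A2, a sugar phosphate carrier of the endoplasmic reticulum, was at 13.3, 17.0, 18.2 and 27.0 FPKM, a log2 change of 0.66 in polysomes and of 0.22 in efficiency. SLC37A4, which brings glucose 6-phosphate into the endoplasmic reticulum, was at 23.2, 46.2, 32.7 and 47.5 FPKM, a change in efficiency of -0.46. The heme carrier SLC48A1 (HRG1) was at 5.88, 3.90, 9.23 and 3.19 FPKM, the largest change in efficiency of the list at -0.92 (counting SE 0.15). Of these, SLC48A1 was lower in polysomes and higher in the sub-polysome pool, and SLC37A2 was higher in both. The iron transporter SLC11A2 (DMT1) had a change in efficiency of -0.51. SLC35A4, of the nucleotide sugar transporter group, and the glucose transporter SLC2A8 (GLUT8) had 0.19 and 0.15. Over all SLC transporters outside SLC25A (123 genes), the median change was 0.18 in the sub-polysome and 0.10 in the polysome pool.

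**Figure D4:**
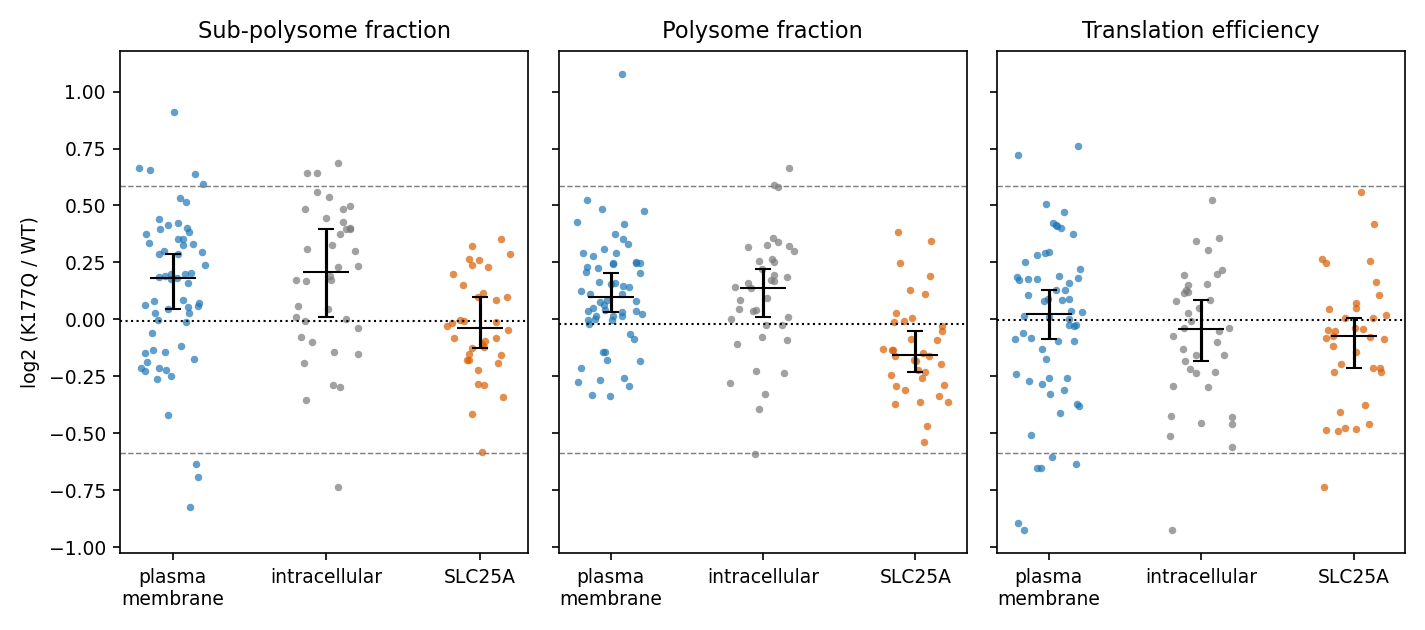
Log2 change from METTL3-WT to METTL3-K177Q cells in the sub-polysome pool, the polysome pool and translation efficiency for each gene of 3 lists; black bars are the list median with its distribution-free 95% interval over genes, the dotted line the median of all mRNAs and dashed lines 1.5-fold. The SLC25A median in polysomes is -0.15 (-0.23 to -0.05), below those of the plasma membrane (0.10) and intracellular (0.14) lists.

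By solute, counts above 0 in polysomes are read against 47.0% of all mRNAs and are small. Of 17 amino acid carriers 14 had a log2 change above 0 in polysomes, with a median of 0.13. The other groups were smaller: 7 of 10 metal carriers (median 0.10), 9 of 13 carriers of vitamins and other organic solutes (median 0.04) and 3 of 3 sugar carriers (median 0.48). Of the carriers of ions and bicarbonate 4 of 10 were above 0, with a median of -0.03, close to the -0.02 of all mRNAs. In the SLC25A family, 1 of 7 amino acid carriers, 3 of 9 nucleotide carriers and 2 of 9 carriers of vitamins and other organic solutes were above 0. The largest polysome change in the plasma membrane list was that of the glutamate transporter SLC1A1 (EAAT3), at 1.17, 1.31, 1.91 and 2.89 FPKM, a log2 change of 1.08; it was chosen after its values were seen.

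The 2 lists also differ in how long their mRNAs are. The median coding length was 1664 bases for plasma membrane carriers, 953 for SLC25A genes and 1320 for all mRNAs in GENCODE 44. Over all mRNAs, Spearman's rho between coding length and the change of efficiency was 0.46. It was 0.51 over the 36 SLC25A genes, 0.13 over the 60 plasma membrane carriers and 0.25 over all members. For the length of the 3′UTR it was 0.41 over the members, 0.47 over the plasma membrane list, 0.32 over the SLC25A family and 0.31 over all mRNAs. For the length of the whole transcript it was 0.54 over the plasma membrane list, 0.39 over the SLC25A family and 0.48 over all mRNAs. In the sub-polysome pool, rho between coding length and the change was -0.31 over all mRNAs, -0.28 over the plasma membrane list and -0.40 over the SLC25A family. In the polysome pool it was 0.26, -0.10 and 0.23 in the same order. These correlations are across genes that share the same libraries, are given with no test, and the part of mRNA length in the difference between the lists was not tested.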

How the data were processed

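Polysome profiling was analysed in 4 poly(A)-selected, strand-directional libraries sequenced on the NovaSeq6000. The authors deposited FPKM per gene, fragments per kilobase normalized to the mapped fragments of each library. STAR 2.7, StringTie 2.1.5 and hg38 are named in the submitters' processing notes, without a role. Replicates were not pooled. The table's other 4 value columns, named for the same genotypes and pools with the number 1, belong to none of the listed samples and were not analysed here. Whether counting used strand is not given in the sources used here, so overlapping genes and near-identical copies are uncertain.

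FPKM were used as deposited, with a minimum mean of 1 FPKM and a pseudocount of 0.1. Translation efficiency was log2 of polysome over sub-polysome FPKM, and its change was METTL3-K177Q minus METTL3-WT. With 1 library per condition no test was made. The fold threshold was 1.5, and 2 was an alternative. Depth was estimated from the lowest cluster of FPKM times length (0.025 to 0.05), the value of about 1 fragment, and gave the counting SE, which covers counting error only. Median intervals are binomial at 95%. All 164 members matched GENCODE 44, 2 of them by an older symbol. Named genes were, among members of at least 5 FPKM, those with the highest level, the highest and lowest efficiency in METTL3-WT cells and the largest changes in each list, plus carriers of known metabolic roles. One gene that this rule names is not reported here. Members and lists were chosen with earlier results of these data known. Calculations used Python 3.11.15, pandas 2.3.3, numpy 2.4.6 and scipy 1.17.1 and were checked on simulated data. Alternatives were other pseudocounts, minimum levels, scalings and lists.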

Additional observations from a re-analysis of the deposited data

How the results depend on the processing

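With 1 library of each condition, the values carry no error between cultures, and depth limits the members near 1 FPKM most. No paired analysis was possible because 1 library of each condition was analysed, all of them numbered replicate 2. Rescaling to TPM moved the median change of efficiency to 0.32 in plasma membrane carriers and 0.22 in SLC25A genes, the efficiency in METTL3-K177Q cells to 0.59 and 0.47, and the sub-polysome change to -0.024 and -0.24, with 20 members 1.5-fold higher and 4 lower (18.2% and 1.61% of all mRNAs). Scaling to equal totals over all genes but those of ribosomal proteins gave 0.26 and 0.16 for the change, 0.38 for the METTL3-K177Q efficiency of plasma membrane carriers, -0.018 and -0.23 in the sub-polysome pool, and 15 and 5 members (13.7% and 2.09% of mRNAs). Both scalings moved the median of all mRNAs alike, by 0.29 and 0.23 for the change of efficiency. At a minimum of 10 FPKM, which leaves 68 members, the plasma membrane efficiencies were 0.37 in both genotypes, the SLC25A change of efficiency was -0.22 and its sub-polysome change 0.10, with 0 members higher and 3 lower (0.664% and 5.04% of mRNAs). A minimum of 5 FPKM left 0 and 6 of 107 (1.17% and 4.83% of mRNAs), no filter gave 23 and 25 of 262 (8.60% and 9.44%), a pseudocount of 1 FPKM gave 2 higher (1.21%), and a threshold of 2-fold gave 1 and 0 (0.501% and 1.002%). The difference of medians between the lists in the change of efficiency ranged from 0.03 to 0.17. The scalings could hardly move this difference, since each multiplies all genes of a library by the same factor. Of 258 values of the 43 named genes under 6 alternatives of scaling or pseudocount, 74 moved by more than their counting error. All but 2 of these were under TPM or equal totals. No named gene past 1.5-fold changed sign, but scaling shifts of 0.29 and 0.23 could not turn one, as that threshold is 0.585 on the log2 scale. Named genes short of it did change sign under TPM, such as SLC16A3 (-0.26 to 0.04) and SLC3A2 (-0.24 to 0.06).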
